A study of Mus musculus with 8 samples.

Results

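Histones are the proteins that package DNA, and 47 mouse histone genes were followed here in liver with or without Dicer1 in hepatocytes. The members were all genes whose name on the array begins with Hist1, Hist2, Hist3, Hist4, H2af, H3f or H1f, which is 47 of 27670 named genes. Of these, 34 have a Hist name and are the replication-dependent class, and 13 are histone variants. Fold differences were drawn only from probes well above background on both arrays of at least 1 group, and 43 members had such a probe, 31 replication-dependent and 12 variant. The members H1fnt, Hist1h2ac, Hist1h2be and Hist2h2aa2 had none and are given by name only.

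The livers came from female C57BL/6 mice aged 6 months. Knockout mice (KO) carried an albumin promoter-driven Cre and 2 floxed Dicer1 alleles (Albumin-Cre;Dicer1loxP/loxP), so that Dicer1, the enzyme that cuts microRNA precursors, is deleted where the albumin promoter is active, in hepatocytes. Their Dicer1loxP/loxP littermates, which carry the floxed alleles without Cre, served as wild type (WT). Each genotype received either the DNA-alkylating mutagen N-ethyl-N-nitrosourea (ENU), injected once at 120 mg/kg, or its vehicle dimethylsulfoxide, in 2 ml/kg. The 4 groups are therefore KO after ENU, WT after ENU, KO on vehicle and WT on vehicle. Livers were studied 15 days after ENU, and the day is not given for vehicle mice.

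Replication-dependent histone genes lie in clusters and are transcribed during S phase, when the new DNA strand needs a supply of H1, H2A, H2B, H3 and H4. Their messages end in a stem-loop, which the stem-loop binding protein Slbp recognises, and carry no poly(A) tail in dividing cells. Variant genes such as those of H2A.Z, H2A.X, macroH2A and H3.3 are expressed outside S phase as well, are polyadenylated and place histones with other roles into chromatin. Adult hepatocytes divide rarely, and H1f0 encodes a linker histone known to accumulate in cells that have stopped dividing. The labelling kit used here primes from an oligo(dT) primer, so a signal for a replication-dependent gene depends on messages or priming sites with adenine runs. How this moves with genotype was not tested.

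One RNA sample stood for each group. The 2 arrays of each group, a and b, differed by no more than the noise between spots of the same probe (1-sided permutation p from 0.584 to 0.969 with the pair's common shift removed; without removing it the KO vehicle pair gave p = 0.00700, from a shift of 0.018 log2), and were averaged and counted as 1 sample. Over the 43 tested members the gap between the 2 arrays of a group had a median of 0.035 log2, and 4 of 172 gaps passed 0.5. A value below is the log2 processed signal minus the array's 75th percentile, called the log2 level, and it may be compared between groups for one probe but not between probes. All ENU arrays were on slide 1 and all vehicle arrays on slide 2, so ENU and slide cannot be told apart, and KO and WT arrays held different positions on both slides, so genotype and position cannot be told apart. With 1 sample a group, a difference between 2 groups has no test, and the sizes past 2-fold are counted. The only test was limma over the 4 samples with terms for genotype and treatment, adjusted over 18160 genes, and "rose" and "fell" are used only of its calls at 0.05. Its error came in part from how far a gene's KO minus WT difference varied between ENU and vehicle. A gene whose difference varied with treatment therefore had a larger SE and passed less readily. Dicer1 itself had log2 levels of 0.17 in KO and 0.42 in WT after ENU and of 0.63 in KO and 1.12 in WT on vehicle, an average KO minus WT difference of -0.38 ± 0.19 (SE) that did not pass (limma adjusted p = 0.197). Whether its probe lies in the deleted part was not determined.

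The sequences just before the start of 6 genes are shown as examples of promoters of called histone genes. They are RefSeq's, from GRCm38.p6, and run 140 bases up to the transcription start, 5′ to 3′ on the gene's strand. Capitals mark matches on either strand. The letters searched were those of the CCAAT box, those of the TATA box (TATAAA), those of the H1 box known from linker histone promoters (AAACACA) and those of the octamer known from H2B promoters (ATTTGCAT). The matches do not overlap one another in these windows. The regions are chr13:23763528-23763667 (Hist1h1a, plus strand), chr13:21780626-21780765 (Hist1h1b, minus), chr13:23554892-23555031 (Hist1h1d, plus), chr13:23750948-23751087 (Hist1h2ab, plus), chr11:58948771-58948910 (Hist3h2ba, plus) and chr15:79028072-79028211 (H1f0, plus). The first 5 belong to genes that rose in KO livers and the last to one that fell.
Hist1h1a: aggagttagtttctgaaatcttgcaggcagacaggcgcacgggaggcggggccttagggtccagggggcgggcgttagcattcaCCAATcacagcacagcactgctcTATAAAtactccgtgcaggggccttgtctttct
Hist1h1b: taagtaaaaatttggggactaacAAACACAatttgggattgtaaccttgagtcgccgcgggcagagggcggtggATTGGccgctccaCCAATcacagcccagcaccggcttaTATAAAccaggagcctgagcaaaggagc
Hist1h1d: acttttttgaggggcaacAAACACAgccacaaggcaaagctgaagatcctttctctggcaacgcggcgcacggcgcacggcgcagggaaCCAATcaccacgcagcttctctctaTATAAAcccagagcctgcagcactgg
Hist1h2ab: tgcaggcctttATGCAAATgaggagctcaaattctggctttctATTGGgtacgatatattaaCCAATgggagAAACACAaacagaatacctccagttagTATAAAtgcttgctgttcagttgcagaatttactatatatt
Hist3h2ba: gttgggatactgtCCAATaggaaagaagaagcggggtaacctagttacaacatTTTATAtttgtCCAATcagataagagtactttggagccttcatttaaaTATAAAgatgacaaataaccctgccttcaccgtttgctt
H1f0: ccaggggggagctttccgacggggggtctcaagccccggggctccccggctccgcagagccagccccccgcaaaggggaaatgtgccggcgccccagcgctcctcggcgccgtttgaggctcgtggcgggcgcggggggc

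The 5 printed windows of genes that rose hold a CCAAT and a TATAAA, and that of H1f0 holds neither. These letters do not sort the called genes by direction. Hist1h2ai and Hist1h2ak, which rose, hold a CCAAT and no TATAAA, and so does Hist2h2aa1, which fell. For H2afy3 no window was matched. RefSeq gave a promoter window of 300 bases, 250 before and 50 after the start, for 40 of the 47 members. CCAAT was in 33 of these 40, against 37.4% of all 32851 windows, and TATAAA was in 20, against 13.6% of all. The split followed the class for TATAAA, with 19 of 29 replication-dependent and 1 of 11 variant windows. The H1 box AAACACA was in 5 of the 6 replication-dependent H1 windows and in 7.18% of all windows, between 112 and 122 bases before the start, and Hist1h1a is the one without it. The octamer ATTTGCAT was in 3 of 5 H2B and 6 of 11 H2A windows and in no H1, H3 or H4 window of this class, against 1.74% of all windows. These matches describe letters only.

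Loss of Dicer1 in hepatocytes went with higher levels of 3 linker histone genes, 3 H2A genes, 1 H2B gene and 1 macroH2A-related pseudogene, H2afy3. By limma over the 4 samples, 8 of the 43 members rose in KO livers (Hist3h2ba, Hist1h2ab, Hist1h1b, Hist1h1d, H2afy3, Hist1h1a, Hist1h2ai and Hist1h2ak) and 2 fell (Hist2h2aa1 and H1f0). Of all 18160 genes, 16.8% rose and 15.2% fell, so the members' share that rose, 18.6%, was close to the background, while their share that fell, 4.65%, was under it. The median average KO minus WT difference was 0.40 log2 for the 43 members and -0.12 for all genes. Scaled to the array median instead, 8 members rose and 9 fell, beside 15% and 26.7% of all genes.

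**Figure D1:**
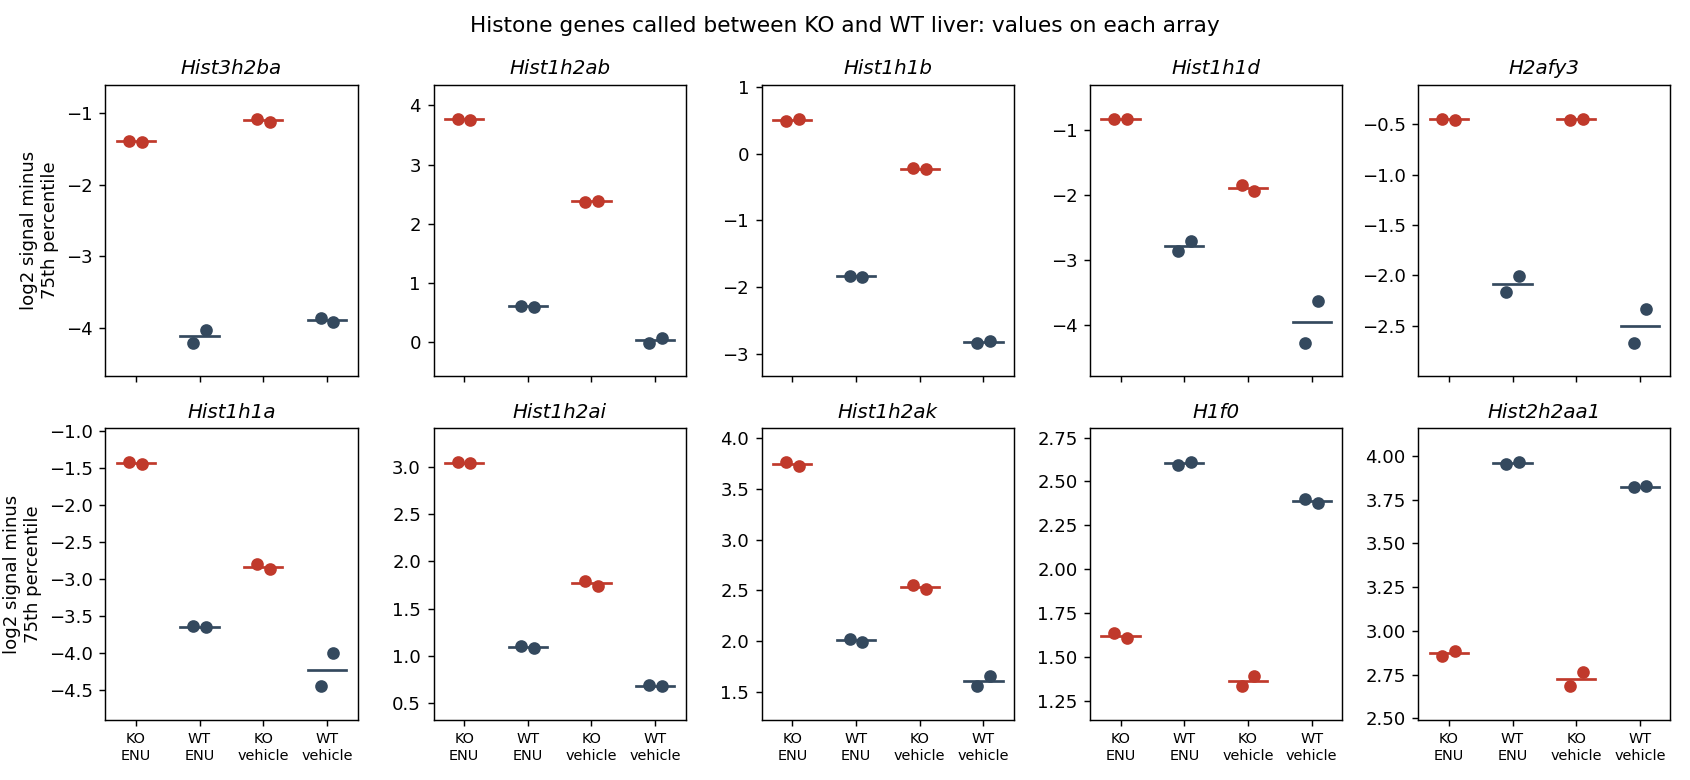
Log2 level (log2 signal minus the array's 75th percentile, vertical axis, a separate scale per panel) of the 10 histone genes called between KO and WT livers, on each array (points, 2 per group) with the group mean (line). In the 8 genes that rose every KO array lies above every WT array, and in H1f0 and Hist2h2aa1 every KO array lies below.

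Linker histones of the replication-dependent class, which bind the DNA between nucleosomes, had the highest family median. Of 6 measured genes 3 rose and none fell, beside 16.8% and 15.2% of all genes, and the median average KO minus WT difference was 1.26 log2. Hist1h1b, which encodes H1.5, had log2 levels of 0.51 in KO and -1.84 in WT after ENU, and of -0.22 in KO and -2.82 in WT on vehicle. The KO level was the higher one by far under both treatments, an average of 2.47 ± 0.19 (SE) or 5.56-fold (limma adjusted p = 0.0106). Hist1h1d, encoding H1.3, had log2 levels of -0.83 in KO and -2.78 in WT after ENU and of -1.89 in KO and -3.96 in WT on vehicle. Its average difference was 2.01 ± 0.18 or 4.02-fold (limma adjusted p = 0.0116), and lay between 1.03 and 2.40 across the processing settings run. Hist1h1a, encoding H1.1, had log2 levels of -1.44 in KO and -3.65 in WT after ENU and of -2.84 in KO and -4.23 in WT on vehicle. It rose by 1.80 ± 0.28 or 3.48-fold (limma adjusted p = 0.0218), but with normexp background correction the difference was 0.72 and did not pass (limma adjusted p = 0.0977). Hist1h1a and Hist1h1d were well above background on only 1 of the 2 arrays of WT liver on vehicle.

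The 3 other linker genes of this class did not pass. Hist1h1c, encoding H1.2, had log2 levels of 3.72 in KO and 2.89 in WT after ENU and of 3.54 in KO and 2.93 in WT on vehicle. Its average difference was 0.72 ± 0.19 (limma adjusted p = 0.0575), and it passed under normexp correction, under quantile normalization and with genes well above background on all 8 arrays. Hist1h1e, encoding H1.4, had log2 levels of 2.45 in KO and 1.28 in WT after ENU, against 1.19 in KO and 1.07 in WT on vehicle, so the KO sample after ENU stood apart from the other 3. Hist1h1t, a linker gene known from testis, lay between -3.90 and -3.72 in all 4 samples.

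Core histone H2A genes of the replication-dependent class went both ways. Of 9 measured, 3 rose and 1 fell, beside 16.8% and 15.2% of all genes, with a median average difference of 0.43 log2. Hist1h2ab had log2 levels of 3.77 in KO and 0.61 in WT after ENU and of 2.38 in KO and 0.035 in WT on vehicle. This was an average of 2.75 ± 0.28 or 6.74-fold higher in KO (limma adjusted p = 0.0126), and the KO liver after ENU was the highest of the 4 samples. Hist1h2ai had log2 levels of 3.04 in KO and 1.09 in WT after ENU and of 1.77 in KO and 0.69 in WT on vehicle. It rose by 1.51 ± 0.28 or 2.86-fold (limma adjusted p = 0.0302). Hist1h2ak, with 3.74 in KO and 2.01 in WT after ENU and 2.53 in KO and 1.61 in WT on vehicle, rose by 1.33 ± 0.27 or 2.51-fold (limma adjusted p = 0.0361). These 3 genes share an order of samples: KO after ENU, KO on vehicle, WT after ENU, WT on vehicle.

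Hist2h2aa1, an H2A gene of the Hist2 cluster, ran the other way. Its log2 levels were 2.87 in KO and 3.96 in WT after ENU and 2.72 in KO and 3.82 in WT on vehicle, and it fell by 1.09 ± 0.18 on the log2 scale, to a level 2.14-fold lower in KO (limma adjusted p = 0.0244). Under quantile normalization the difference was -0.74 and did not pass (limma adjusted p = 0.0568). Hist3h2a had 4.50 in KO and 3.02 in WT after ENU, against 3.35 in KO and 3.07 in WT on vehicle. It differed by 1.48 after ENU and by 0.28 on vehicle and did not pass (limma adjusted p = 0.129). Hist1h2aa, known as the testis H2A, Hist1h2af and Hist2h2ac differed by 0.77, 0.81 and 0.41 after ENU and by 0.052, 0.060 and -0.087 on vehicle, and none passed. Hist1h2ae, at most -3.77 in any sample, was well above background on both arrays only in the KO groups.

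Of the replication-dependent H2B genes, 1 of 7 rose and none fell, beside 16.8% and 15.2% of all genes. The other 6 of these 7 had lower values in KO under both treatments. These 7 include Hist3h2bb, whose current RefSeq symbol, H2bu1-ps, is that of a pseudogene. Hist3h2ba had log2 levels of -1.39 in KO and -4.12 in WT after ENU and of -1.09 in KO and -3.89 in WT on vehicle. The average difference, 2.76 ± 0.18 or 6.77-fold (limma adjusted p = 0.0103), was the largest among the members at the main scaling. Across the settings run it lay between 1.37 and 2.80, and that of Hist1h2ab between 2.55 and 2.95. The probe of Hist3h2ba was well above background on only 1 of the 2 arrays of WT liver on vehicle. A further 4 probes had like values: Hist1h2bc, Hist1h2bk, Hist1h2bm and Hist3h2bb differed by between -0.48 and -0.35 on vehicle and by between -0.77 and -0.61 after ENU. None passed at the main scaling, all 4 fell when arrays were scaled to the median, and under quantile normalization the family median was 0.17 on vehicle and -0.16 after ENU. Hist1h2ba, the testis H2B, had 2.28 in KO and 3.81 in WT after ENU and 3.07 in KO and 3.53 in WT on vehicle. Its average difference was -0.996 ± 0.328 (limma adjusted p = 0.0886), and it passed when scaled to the median and with genes well above background on all 8 arrays. Hist2h2be differed by -0.73 after ENU and by -0.12 on vehicle.

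The 3 measured H3 genes of this class, Hist1h3a, Hist1h3d and Hist2h3c1, differed between KO and WT by 0.48 to 0.73 after ENU and by 0.11 to 0.22 on vehicle, and none passed. With arrays scaled to the median the H3 median on vehicle was -0.039 in place of 0.19.

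Of the 6 measured H4 genes, 5 were higher in KO livers after ENU and close to WT on vehicle, and none passed the average KO minus WT test. Hist1h4a had log2 levels of 3.81 in KO and 2.89 in WT after ENU, against 2.87 in KO and 3.08 in WT on vehicle. Hist1h4d had 5.31 in KO and 4.38 in WT after ENU, against 4.58 in KO and 4.65 in WT on vehicle. In both the KO sample after ENU was the highest and the WT sample after ENU the lowest or nearly so. Together with Hist1h4f, Hist2h4 and Hist4h4 they differed by 0.90 to 0.96 after ENU and by -0.28 to -0.067 on vehicle. Hist1h4i did not share this, with 0.16 after ENU and -0.27 on vehicle. Its probe, unlike those of the other 5, carries no RefSeq entry, and its coordinates are only chr13:21406569-21406575. The H4 median on vehicle was -0.15, but 0.23 under quantile normalization, whereas after ENU it was above 0 at every scaling run.

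**Figure D2:**
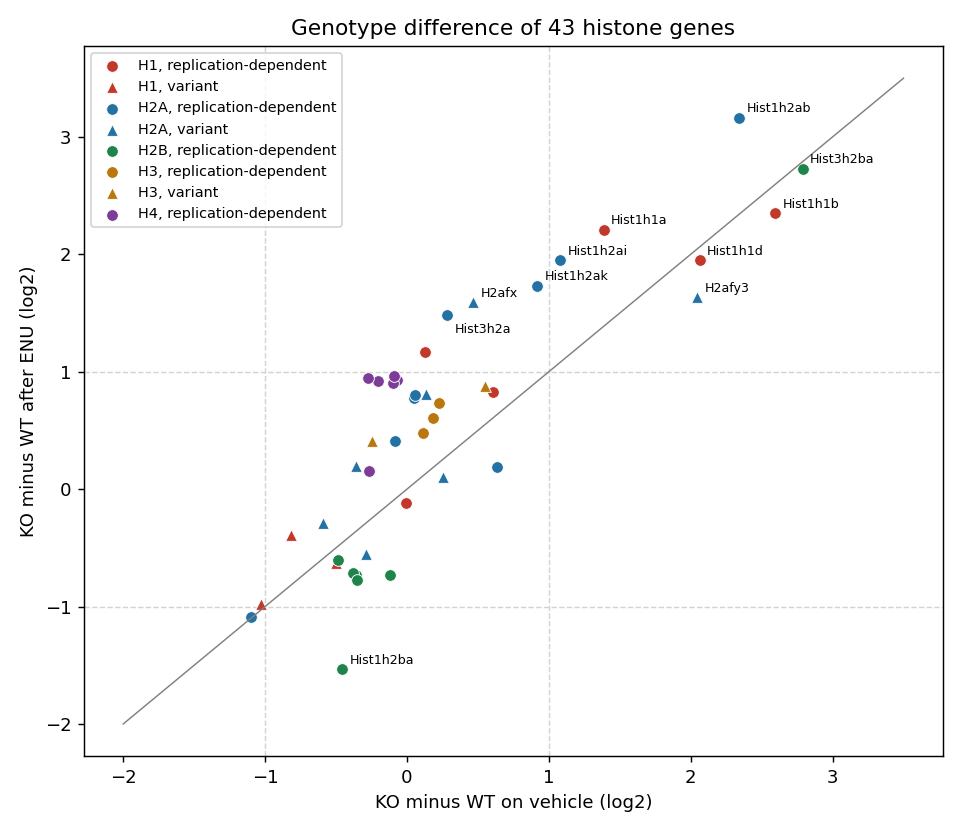
Log2 difference between KO and WT livers on vehicle (horizontal) and after ENU (vertical) for the 43 tested histone genes, coloured by family, with circles for replication-dependent genes and triangles for variants. The grey line marks equal differences and dashes mark 2-fold. The 5 H4 genes named above lie between 0.90 and 0.96 after ENU and between -0.28 and -0.067 on vehicle, above the line.

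Among the 12 measured variants 1 rose and 1 fell, or 8.33% each, beside 16.8% and 15.2% of all genes. Of the 31 replication-dependent genes 7 rose and 1 fell, or 22.6% and 3.23%. The median average difference was 0.0017 log2 for the variants and 0.41 for the replication-dependent genes, and the difference between the classes was not tested. Under quantile normalization these medians were 0.44 and 0.85, and with arrays scaled to the median they were -0.20 and 0.21. H2afy3, a macroH2A-related locus that RefSeq lists as a transcribed pseudogene, had log2 levels of -0.45 in KO and -2.09 in WT after ENU and of -0.45 in KO and -2.50 in WT on vehicle. It rose by 1.84 ± 0.21 or 3.58-fold (limma adjusted p = 0.0141). The linker variant H1f0 had 1.62 in KO and 2.60 in WT after ENU and 1.36 in KO and 2.39 in WT on vehicle. At this probe, the brightest of 3, it fell by 1.01 ± 0.18 on the log2 scale, to a level 2.01-fold lower in KO (limma adjusted p = 0.0278). H1fx, a linker variant of somatic cells, and H1foo, known from oocytes, differed by -0.56 ± 0.18 and -0.60 ± 0.21 and did not pass.

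H2afx, whose product H2A.X is phosphorylated around DNA breaks, had 2.67 in KO and 1.07 in WT after ENU and 2.62 in KO and 2.15 in WT on vehicle. The WT sample after ENU was the low one of the 4. The average difference was 1.03 ± 0.34 (limma adjusted p = 0.0880), and it passed under normexp correction and with genes well above background on all 8 arrays. H2afz, which encodes the main H2A.Z, had 5.22 in KO and 5.11 in WT after ENU, against 4.57 in KO and 4.31 in WT on vehicle, so that both ENU samples were above both vehicle samples at this probe. The other passing probe given as H2afz differed between ENU and vehicle by -0.15 in KO and by 0.067 in WT livers. That probe lies at chr6:116197660-116197719, on another chromosome from the brightest at chr3:137674646-137674705, with log2 levels between -2.99 and -2.77. Whether it reads H2afz was not tested. H2afv, the second H2A.Z gene, differed between KO and WT by -0.29 after ENU and by -0.59 on vehicle, and H2afy, which encodes macroH2A, by -0.55 and -0.29. H2afj had 0.20 after ENU and -0.36 on vehicle at its brightest probe, while its other passing probe gave -0.32 and -0.22. For the macroH2A gene H2afy2 both WT groups were not well above background. Its arrays lay at -5.21 and -4.51 in KO and at -5.05 and -6.28 in WT after ENU, so the groups overlapped. H3f3b, one of the pair of H3.3 genes, had 5.81 in KO and 4.93 in WT after ENU and 5.32 in KO and 4.77 in WT on vehicle. Its average difference was 0.71 ± 0.20 (limma adjusted p = 0.0642) and passed under 3 other settings, quantile normalization among them. The other H3.3 gene, H3f3a, differed by 0.41 after ENU and by -0.25 on vehicle.

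The called genes of the Hist1 cluster lay in both of its blocks. The Hist1 probes lie on chromosome 13 (mm7) in 2 stretches. The first, chr13:21088259-21406575, held 6 measured genes, 3 of which rose, and the second, chr13:22900228-23300651, held 16, 3 of which rose. These counts stand beside 16.8% of all genes that rose, and the share of the second block was close to it. Called and uncalled genes were neighbours: Hist1h2ab (chr13:23117325-23117384) rose, while Hist1h4a (chr13:23126834-23126893) and Hist1h3a (chr13:23127689-23127748) did not pass, and Hist1h1a (chr13:23129821-23129880) rose. In the Hist3 cluster on chromosome 11, Hist3h2ba (chr11:59030991-59031050) rose and Hist3h2bb (chr11:59035740-59035799) had -0.56.

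ENU against vehicle gave no call in either direction over all genes, 0 higher and 0 lower, or 0% each, among 18160. At an unadjusted p under 0.05 limma gave 7 members higher after ENU and 0 lower (H2afz, Hist1h1a, Hist1h1b, Hist1h1d, Hist1h2ab, Hist1h2ai and Hist1h2ak), beside 1913 higher and 2066 lower of all genes, and the smallest adjusted p was 0.160. Of the 7, Hist1h1a, Hist1h1b, Hist1h1d, Hist1h2ab, Hist1h2ai and Hist1h2ak also rose in KO livers. The genotype and treatment terms of a gene share the same SE, so a gene with a small SE passes both more readily. The overlap is therefore partly built in, and its share over all genes is not given here. In KO livers, 7 of 43 members were past 2-fold higher after ENU (Hist1h1a, Hist1h1d, Hist1h1e, Hist1h2ab, Hist1h2ai, Hist1h2ak and Hist3h2a) and 0 were past 2-fold lower, beside 4.34% and 5.43% of all genes. Those 7 are all replication-dependent, and their differences ran between 1.06 and 1.40. For 2 of them the probes disagreed. The second probe of Hist1h1d gave -1.11, and the other passing probes of Hist3h2a gave 0.19 and -0.20 against 1.15 at the brightest. With the mean of all probes 5 members were past 2-fold higher, without Hist1h1d (-0.022) and Hist3h2a (0.38). In WT livers 1 member was past 2-fold higher, Hist1h1d at 1.18, and 1 past 2-fold lower, H2afx at -1.08, beside 7.24% and 5.5% of all genes. There the second probe of Hist1h1d gave -0.39, and it was well above background on only 1 array of each WT group. Without WT vehicle array a, Hist1h1d was at 0.86 in WT livers, and without WT ENU array a H2afy2 joined H2afx past 2-fold lower.

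The ENU differences of 5 of the 6 H4 genes pointed opposite ways in the 2 genotypes. Hist1h4a, Hist1h4d, Hist1h4f, Hist2h4 and Hist4h4 were 0.69 to 0.94 higher after ENU than on vehicle in KO livers, and differed by between -0.53 and -0.19 in WT livers. The exception was Hist1h4i, whose probe has the limit given above, at -0.19 in KO and -0.62 in WT livers. The H2B genes ran the other way round in KO livers, where all 7 were lower after ENU, with a median of -0.31, against 0.063 in WT livers. Replication-dependent H1 genes had a median ENU difference of 0.90 in KO livers and 0.39 in WT livers, and H2A genes 0.59 and 0.13. With 1 sample a group, none of these differences between genotypes was tested. The all-gene medians were -0.056 in KO and -0.039 in WT livers.

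**Figure D3:**
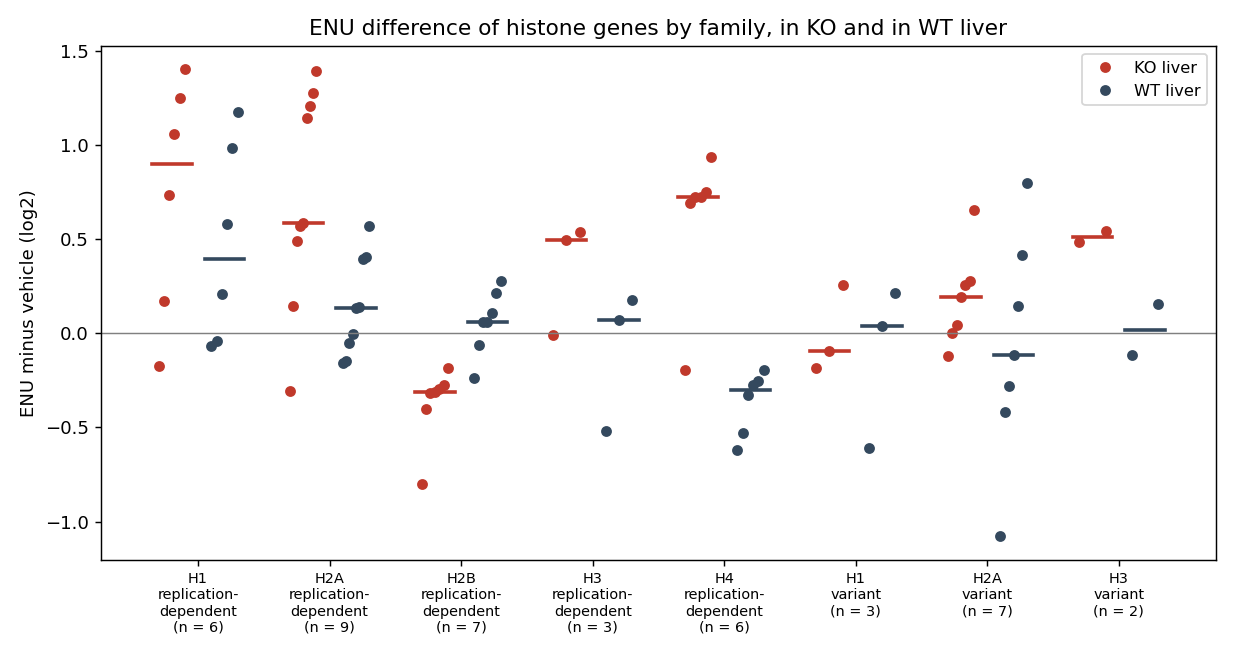
Log2 difference between ENU and vehicle for each histone gene (points) in KO livers (left of each pair) and WT livers (right), by family and class, with the family median (line). The H4 genes are mostly above 0 in KO livers, median 0.72, and all below 0 in WT livers, median -0.30, and all 7 H2B genes are below 0 in KO livers.

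Counted by size within each treatment, more members were past 2-fold higher in KO after ENU than on vehicle. After ENU 11 members were past 2-fold higher in KO livers and 2 past 2-fold lower, beside 16.2% and 14.3% of all genes. On vehicle 7 were past 2-fold higher and 2 past 2-fold lower, beside 17.3% and 11.1% of all genes. H2afx, Hist1h1e, Hist1h2ak and Hist3h2a were past 2-fold higher after ENU but not on vehicle, and Hist1h2ba was past 2-fold lower only after ENU, at -1.54 against -0.46. The pairs share no samples across treatments, and the difference between them was not tested. Under quantile normalization 24 members were past 2-fold higher after ENU, beside 16.1% of all genes, the H4 genes Hist1h4a, Hist1h4d, Hist1h4f, Hist2h4 and Hist4h4 among them.

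Near-identical coding sequences limit which gene a histone probe reads. Probe sequences were not used here, so cross-hybridisation among paralogs could not be measured, and each value names the gene the array gives. Of 13 members with at least 2 passing probes, 6 had probes whose average KO minus WT differences lay over 0.5 log2 apart (H1f0, H1fx, Hist1h1d, Hist1h2af, Hist1h2bc and Hist3h2a). The second probe of Hist1h2af had log2 levels of 4.34 in KO and 2.15 in WT after ENU and of 3.21 in KO and 1.84 in WT on vehicle, that is 2.19 and 1.37 higher in KO, against 0.81 and 0.060 at its brightest probe. For Hist1h2bc the second probe was not well above background on any WT array. Set against a floor, KO was 7.96-fold higher after ENU and 2.11-fold higher on vehicle, while the brightest probe gave -0.61 and -0.48. The floor was, on each dim array, the higher of the probe's own signal and the lowest signal well above background. Some signals above that lowest one were still not well above background, such as H2afy2 at -5.05 on WT ENU array a. These folds are therefore not lower limits. The second probe of Hist1h2bc lies at chr13:21203334-21203393, in the other Hist1 block from the brightest probe at chr13:23058152-23058211. The 2 dimmer probes of H1f0 differed by -0.22 after ENU and by -0.33 and -0.32 on vehicle, and with the mean over its probes H1f0 did not pass (-0.52, limma adjusted p = 0.0999). H1fx had a dimmer RefSeq probe that was 0.98 higher in KO after ENU and at least 1.76-fold higher on vehicle, whereas the brightest, from an expressed sequence tag, was lower. Another probe of Hist3h2a, on the opposite strand by its coordinates, differed by -0.20 after ENU and by -0.45 on vehicle. Both passing probes of Hist1h1d were higher in KO, by 2.43 and 1.95 after ENU and by 3.15 and 2.06 on vehicle.

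**Figure D4:**
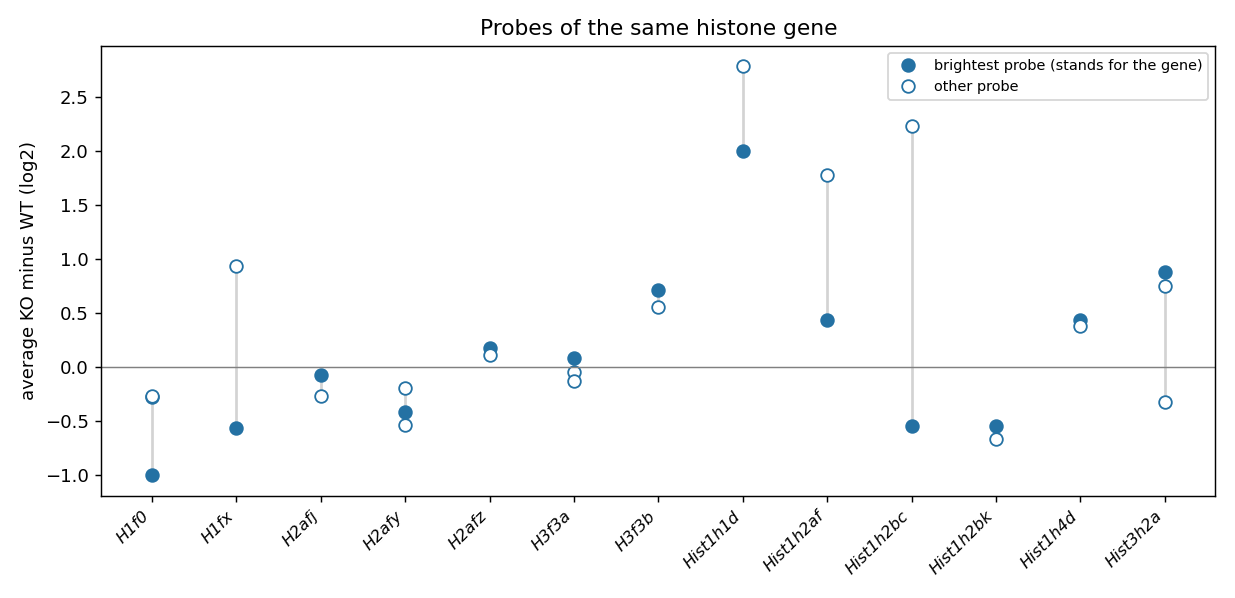
Average KO minus WT log2 difference of each passing probe (points) of the 13 histone genes with more than 1, with the brightest probe filled. Probes of Hist1h2bc, H1fx and Hist3h2a lie on both sides of 0, and those of Hist1h1d, Hist1h4d and Hist1h2bk on one side.

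The genes that make, carry and mark histones were read from lists, again by the limma call for KO against WT, and their counts stand beside 16.8% of all genes that rose and 15.2% that fell. Of 17 measured genes for the 3′ processing and turnover of histone messages none rose and 1 fell, Lsm10, a protein of the U7 particle that cuts histone messages, by 0.79 on the log2 scale. Slbp had log2 levels of 2.06 in KO and 1.65 in WT after ENU and of 1.80 in KO and 1.19 in WT on vehicle, a difference of 0.51 ± 0.19 that did not pass (limma adjusted p = 0.109). Of 11 genes for transcription at histone loci 3 rose, Ccne1 by 2.26, E2f1 by 1.02 and Nfya, a subunit of the factor that binds CCAAT, by 0.85. Npat, the coactivator that assembles at the clusters, differed by 0.27 ± 0.18 and did not pass.

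Of 18 measured chaperones that bring new histones to replicated DNA 6 rose and none fell, beside 16.8% and 15.2% of all genes: Mcm2 by 2.18, the H3-H4 chaperone Asf1b by 1.90, the CAF-1 subunits Chaf1a by 1.69 and Chaf1b by 1.64, Tonsl by 1.45 and Mms22l by 1.24. Chaf1b had log2 levels of 1.35 in KO and -0.35 in WT after ENU and of 0.097 in KO and -1.48 in WT on vehicle, so KO was above WT under each treatment and ENU above vehicle in each genotype. Of 19 chaperones and exchangers of variant histones 5 rose, among them Oip5, a loading factor for the centromeric H3 variant, by 2.54, and 1 fell, Znhit1, by 0.998. The centromeric H3 variant gene Cenpa rose by 1.14 ± 0.18 (limma adjusted p = 0.0230), but the H3.3 chaperone genes Hira, Daxx and Atrx differed by 0.22, 0.29 and 0.12 and did not pass. Among 25 S phase genes 17 rose and none fell, with Uhrf1 at 3.42, Mcm5 at 2.47 and Cdc6 at 2.37, and of 17 genes of G2 and M phase all 17 rose, Ccnb1 by 4.02, Cdk1 by 4.004 and Bub1 by 3.92. Of 24 measured enzymes that methylate, acetylate or deacetylate histones 1 rose, the H3K27 methyltransferase gene Ezh2 by 1.30, and 1 fell, the acetyltransferase gene Kat2b by 0.84.

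**Figure D5:**
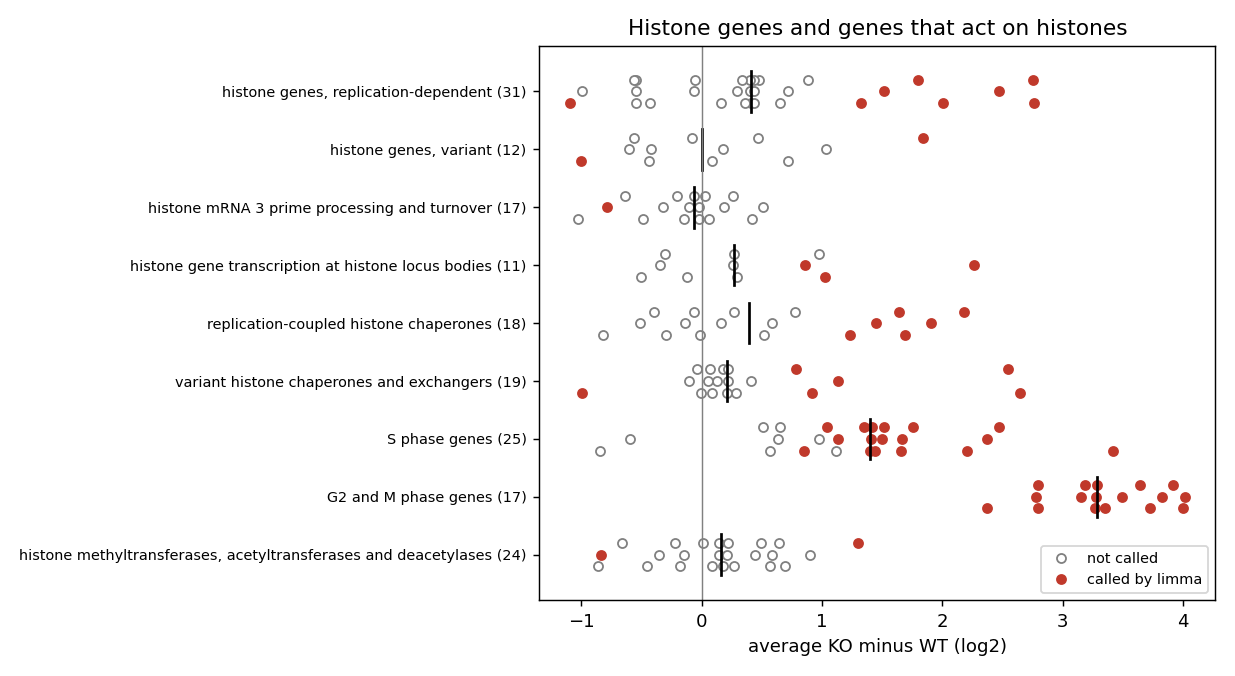
Average KO minus WT log2 difference of the 43 histone genes by class and of 7 lists of genes that act on histones or mark the cell cycle (points; filled where limma called the gene at 0.05; black line, median; number of genes in brackets). All 17 genes of G2 and M phase lie to the right, and 7 of 31 replication-dependent histone genes and 1 of 12 variants rose, beside 16.8% of all genes.

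Markers of other cell types moved with genotype beside these genes, and their counts too stand beside 16.8% of all genes that rose and 15.2% that fell. Of 9 measured hepatocyte markers none rose and 6 fell, and their summed linear level was 1542 in KO and 2460 in WT after ENU and 1473 in KO and 2552 in WT on vehicle. Such sums, here and below, are weighted toward the brightest probes and do not measure numbers of cells. Neutrophil and myeloid progenitor markers rose in 10 of 11 cases (summed level 52.3 in KO and 7.47 in WT after ENU, 37.8 in KO and 4.90 in WT on vehicle), macrophage markers in 7 of 9 (320 in KO and 119 in WT after ENU, 174 in KO and 73.5 in WT on vehicle) and cholangiocyte and progenitor markers in 8 of 9 (75.6 in KO and 16.0 in WT after ENU, 77.4 in KO and 14.7 in WT on vehicle). B and plasma cell markers rose in 3 of 7, stellate cell markers in 2 of 9 and T and NK cell markers in 4 of 9 with 2 that fell, while erythroid markers had 1 that rose and 2 that fell of 6 and endothelial markers 1 that fell of 8. Among the markers that were not tested were Rhag of erythroid cells, Pax5 of B cells and Ncr1 of NK cells. The part of these cells in the histone differences was not tested, and in whole liver a change in the number of cells of a type and in RNA per cell cannot be told apart.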

How the data were processed

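The members and gene lists were chosen with earlier results of these data known. Per the file headers, the authors made the deposited intensity columns with Agilent Feature Extraction 10.7.1.1, which subtracts background to give the processed signal (10.5.1, per the submitters' processing notes). Each array held 43379 spots that were not controls, for 41174 probes, 54.7% to 69.3% of spots were well above background and none was saturated. Computed here was the log2 of the processed signal, scaled to the 75th percentile of the array. Outlier spots were omitted, spots averaged within a probe, and a gene read at its brightest passing probe. Members kept the array's gene names and mm7 coordinates; other names were updated through RefSeq. The fit used limma 3.58.1 in R 4.3.3 (genotype and treatment terms, 1 residual degree of freedom). Its code was run on simulated data with independent noise and few changed genes. That setting is unlike these data, so the run does not bear on the calls here. The number of mice behind an RNA sample is not given in the sources used here, and the number of arrays limits the precision. The 1 residual degree of freedom is the change in the KO minus WT difference between ENU and vehicle. The limma p-values therefore measure no spread between replicate samples of a group. Named were all called members, the 10 with the largest difference in each comparison, every measured variant, members with discordant probes and, per list, the 3 called genes with the largest difference and preset chaperone and processing genes. Some genes the rule names are not reported here. Tonsl, Mms22l, Dicer1 and the untested markers were added after their values were seen.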

Additional observations from a re-analysis of the deposited data

Results flagged for a closer look

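Hist4h4, a histone H4 gene outside the 3 main clusters, differed in opposite directions after ENU in the 2 genotypes. It was 0.69 log2 higher after ENU than on vehicle in KO livers, and differed by -0.53 in WT livers. Both arrays of each group lay on that side, and the difference between the genotypes was not tested.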

How the results depend on the processing

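No paired analysis was possible because the arrays a and b of each group were counted as 1 sample, and for the same reason the fit over 8 separate arrays was not run. Of the 10 called members, 7 passed in every setting run that gave a value. Hist1h1a was lost with normexp correction (0.72), Hist2h2aa1 under quantile normalization (-0.74) and H1f0 with the mean of all probes (-0.52). The number of members that rose was 8 to 10 across the settings other than leaving out an array. The number that fell was 1 under quantile normalization, 9 with median centring and 1 with the mean of all probes, and 2 or 3 in every other setting run. Median centring moved the all-gene median of the average KO minus WT difference to -0.33, in place of -0.12, and the 7 members it added to those that fell include Hist1h2bc at -0.75 and H1foo at -0.81. On vehicle, 4 members were past 2-fold higher in KO with genes well above background on all 8 arrays, where 36 members were tested, and the number past 2-fold lower was 1 with normexp correction, 0 under quantile normalization and 1 with the mean of all probes. After ENU, quantile normalization gave 24 past 2-fold higher and 1 lower. For ENU against vehicle in KO livers 1 member was past 2-fold lower without the filter on dim probes. In WT livers the number past 2-fold higher was 0 with normexp correction, 0 with the mean of all probes, 0 with genes well above background on all 8 arrays and 2 without the filter, and the number past 2-fold lower was 0 with normexp correction, 0 under quantile normalization and 2 with the mean of all probes. The cause of these shifts was not tested. With the mean of all probes the ENU difference of Hist1h1d in KO livers was -0.022 in place of 1.06, since its second probe ran the other way. Leaving out each array in turn kept every limma call; the number past 2-fold lower in KO on vehicle was 1 to 2 (H1f0 at -0.998 without KO vehicle array a), the number past 2-fold higher after ENU in WT 0 to 1 and lower 1 to 2. Dim probes limit Hist1h1a, Hist1h1d, Hist1h1t, Hist1h2ae, Hist1h3a, Hist3h2ba and H2afy2, each not well above background on at least 1 array.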
